A study of Mus musculus with 8 samples.

Results

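Complement receptors and regulators of B-1a cells were followed through 9 genes, Cr2, Cr1l, Cd55, Cd46, Cd59a, C3, C3ar1, C5ar1 and Cfp, chosen by name. Of these, 8 had a probe set that the platform annotation gives to that gene alone, out of 22180 genes measured in this way. C3 was not analysed here. Each of the 8 had 1 probe set, so no choice between probe sets bore on them.

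B-1a cells, a CD5+ B cell subset of the body cavities, were obtained by cell sorting of peritoneal lavage from mice aged 5 weeks. The mutant genotype was PTIPflox/flox with 1 Cre allele active in B lineage cells, which removes Paxip1, the gene of the chromatin protein PTIP (KO). The control genotype was PTIP+/+ with the same Cre allele, so both groups carried it. The 29 mutant and 22 control mice had been combined into 4 pools per genotype, and each pool gave 1 Affymetrix array. The values are log2 RMA values, a normalized summary per probe set that shows a gene relative to the rest of its array, and levels of different genes are not compared.

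Complement is a cascade of plasma proteins that cleaves C3 and tags surfaces with its fragments. B cells bind these fragments through CD21, which works with the tetraspanin CD81 in a co-receptor that lowers the threshold of the B cell receptor, and body cavity B-1 cells are known for less CD21 than follicular B cells. Host cells protect themselves with membrane regulators that limit the C3-cleaving enzymes (CD55, CD46 and Crry) or block the membrane attack complex (CD59). C3a and C5a signal through receptors best known from myeloid cells.

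Paxip1 fell in KO from 7.05 ± 0.13 to 4.38 ± 0.54 (SD, n = 4 pools each; difference -2.67, adjusted p in limma = 9.96e-05). The mean of 9 measured B cell markers lay between 9.87 and 10.12 in KO pools and between 10.03 and 10.13 in control pools. Cd5, which defines B-1a cells, stood at 7.48 in KO and 7.44 in control. For 15 T cell markers the mean reached 7.19, 6.95, 5.14 and 5.65 in KO pools 1 to 4, against 5.38, 5.51, 4.78 and 4.56 in control pools 1 to 4. In both genotypes it was higher in pools 1 and 2 than in pools 3 and 4. Of the 15 markers 14 were higher in KO. Limma called 0 of them, with 11 at an unadjusted p under 0.05. Over all genes limma called 3.59%, and 15.3% had an unadjusted p under 0.05. The mean of 10 B-1a list genes was 7.18 to 7.27 in KO and 7.68 to 7.80 in control, with 5 called, all lower. Itgam, a complement receptor gene, is among those 5. On this list 2 genes were higher in KO, among them Ctla4 by 0.55 with no overlap of pools, not called (adjusted p in limma = 0.108). For 7 follicular B cell genes the mean was 6.33 to 6.45 in KO and 5.84 to 6.05 in control, with 3 called higher and 1 called lower. Cr2 and Cd55 are on this list. Without them limma called 2 of 5 higher, Satb1 by 1.34 and Vpreb3 by 1.82, and 0 lower. The mean was then 6.25 to 6.40 in KO and 5.56 to 5.76 in control. Of those not called, Fcer2a differed by 0.35, Ccr7 by -0.11 and Klf2 by -0.20. The mean of 11 NK markers was 4.48 to 5.72 in KO and 3.70 to 4.55 in control, with all 11 higher and 2 called. That of 17 macrophage markers was 4.78 to 5.04 in KO and 4.73 to 5.45 in control, highest in control pool 1. None of 10 neutrophil markers had a mean above 3.81, the median of all genes, and 2 of 7 mast cell markers did. Mast cell markers were highest in control pool 1 as well, at 4.26 against 3.03 to 3.72 in the other 7 pools. In such bulk samples fewer cells of a type and less RNA per cell cannot be told apart.

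**Figure D1:**
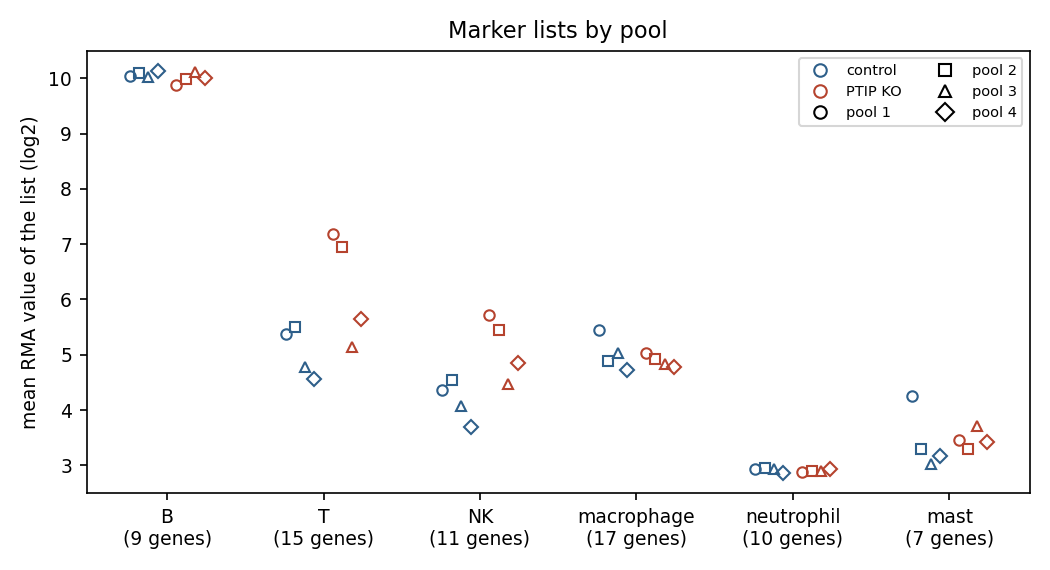
Mean RMA value (log2) of each marker list in each pool, control in blue and KO in red, with a symbol for each pool number. The T cell means of KO pools 1 and 2, at 7.19 and 6.95, lie above those of the other 6 pools, while the B cell means lie close together.

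Two-sided limma tests across all 22180 genes called 2 of the 8 complement genes, 1 in each direction: the receptor gene Cr2 rose and the regulator gene Cd55 fell in KO. A call here is an adjusted p under 0.05 after Benjamini-Hochberg adjustment. Over all genes 3.59% were called, 1.49% higher and 2.1% lower in KO. The 4 KO pools stood wholly to one side of the 4 control pools in 3 of the 8 members (Cr2, Cr1l and Cd55) and in 10.5% of all genes. At an unadjusted p under 0.05 there were 4 of 8, against 15.3% of all genes. The median difference was 0.01 over the 8 members and 0.02 over all genes, and the median of its absolute size was 0.13 and 0.10. The members therefore did not shift together in one direction.

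**Figure D2:**
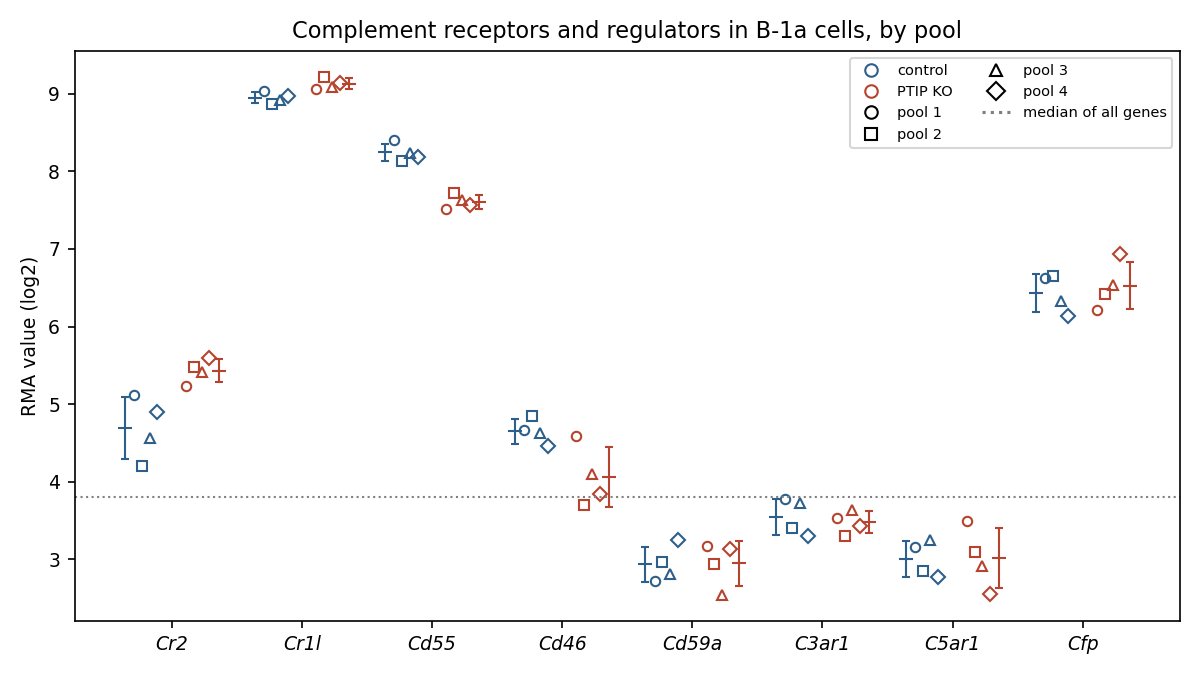
RMA value (log2) of each measured complement gene in every pool, control in blue and KO in red, with the mean and SD of 4 pools beside the points and the median of all genes, 3.81, as a dotted line. Cr2, Cr1l and Cd55 are the members whose genotypes do not overlap, and Cd59a, C3ar1 and C5ar1 lie below the dotted line on average.

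Cr2 encodes CD21 and, in mice, by alternative splicing also CD35, which bind fragments of C3. Cr2 stood at 5.24, 5.48, 5.42 and 5.59 in KO pools 1 to 4 and at 5.12, 4.20, 4.57 and 4.90 in control pools 1 to 4. The KO pools were all above the control pools, but KO pool 1 and control pool 1 were only a short way apart, and the control pools spread more widely, with an SD of 0.40 against 0.15. The rise was 0.74 on the log2 scale (SE 0.17, 95% interval 0.36 to 1.11), or 1.66-fold, with an adjusted p in limma of 0.0411. Among the 70 ways to assign the arrays to groups, the exact permutation p (two-sided) was 0.0286, which 4 against 4 arrays cannot go below. The call was lost when any pool other than control pool 1 was left out: the difference then lay between 0.57 and 0.80 and adjusted p between 0.0600 and 0.114. Without control pool 1, the control pool nearest to KO, it was 0.88 with an adjusted p of 0.0183. With the mean of the macrophage markers as a covariate the rise was 0.79 (adjusted p = 0.0466), and with that of the T cell markers 0.86 (adjusted p = 0.126). Which spliced products this probe set reads was not analysed here.

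Cd55 encodes decay-accelerating factor, which takes apart the C3 and C5 convertases on the cell's own surface. Its values were 7.52, 7.72, 7.64 and 7.56 in KO pools 1 to 4, against 8.40, 8.14, 8.24 and 8.19 in control pools 1 to 4. Every KO pool was below every control pool, and the gap between the groups was wider than the range of either group. Cd55 fell by 0.63 (SE 0.09, 95% interval -0.83 to -0.44), a 1.55-fold difference with an adjusted p in limma of 0.00265. The exact permutation p was again 0.0286. The call held in all 20 alternative settings, with differences between -0.67 and -0.58 and adjusted p up to 0.0369, reached when the T cell marker mean was a covariate. Without KO pools 1 and 2, those with the highest T cell marker means, the difference was -0.64 (adjusted p = 0.0299). Mice have a close copy, Cd55b, which the array's probes may not separate from Cd55; its probe set differed by -0.07 (SE 0.10) and was not called.

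The sequences before the RefSeq transcription start are shown for the 2 called genes, which moved in opposite directions. Each line holds 250 bases, read 5′ to 3′ on the gene's strand, and the capitals mark matches to 6 short motifs searched on both strands. The windows are chr1:195176720-195176969 for Cr2 and chr1:130462745-130462994 for Cd55, both on the minus strand of GRCm38.p6. RefSeq annotates the Cr2 gene over 161 bases of its window and the Cd55 gene over all 250, so other transcripts of both start further upstream.
Cr2: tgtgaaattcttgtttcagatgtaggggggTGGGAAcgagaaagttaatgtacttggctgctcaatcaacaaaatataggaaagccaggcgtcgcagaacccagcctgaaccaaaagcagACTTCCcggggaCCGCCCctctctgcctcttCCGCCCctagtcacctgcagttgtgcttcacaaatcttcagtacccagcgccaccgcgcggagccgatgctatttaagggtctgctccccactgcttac
Cd55: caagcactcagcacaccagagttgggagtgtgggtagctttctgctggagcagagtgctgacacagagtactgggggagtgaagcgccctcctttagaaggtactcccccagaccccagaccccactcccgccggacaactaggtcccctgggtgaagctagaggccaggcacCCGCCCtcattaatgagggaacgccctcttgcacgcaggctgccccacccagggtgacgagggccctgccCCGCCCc
The Cr2 window holds 1 match to TGGGAA, the core read by the Notch effector RBP-J, 1 to the ETS core GGAAGT and 2 to the GC box GGGCGG, the latter 3 as reverse complements. The Cd55 window holds 2 matches to the GC box, both as reverse complements. No match overlaps another. Neither window holds the TATA box TATAAA, the octamer ATGCAAAT or the E box CAGCTG. Of 32851 promoter windows of this length, 21.6% hold TGGGAA, 19.7% GGAAGT, 32.7% GGGCGG, 12.4% TATAAA, 1.6% ATGCAAAT and 13% CAGCTG, so the matched motifs are common ones. The GC content was 53.6% for Cr2 and 64% for Cd55, with a median of 52.4% over all windows. All 8 measured members matched a window; TGGGAA was found only in that of Cr2, GGAAGT in those of Cr2 and C5ar1, and GGGCGG in those of Cr2, Cd55 and C3ar1. These matches describe the letters of the windows only.

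Cr1l encodes Crry, the broadly expressed rodent regulator that acts as cofactor for C3b cleavage and speeds decay of the convertases. It was measured at 9.06, 9.22, 9.08 and 9.14 in KO pools 1 to 4 and at 9.03, 8.87, 8.92 and 8.97 in control pools 1 to 4. The groups did not overlap, yet KO pool 1 was barely above control pool 1. The difference was 0.18 (SE 0.08, 95% interval 0.0032 to 0.35), and limma did not call it (adjusted p = 0.314; 0.157 to 0.593 over the 20 alternatives). Its exact permutation p was 0.0286. Of all genes, 72.7% had a smaller absolute difference.

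Cd46 encodes membrane cofactor protein, which in mice is best known from testis and the sperm acrosome. It stood at 4.59, 3.71, 4.10 and 3.84 in KO pools 1 to 4 and at 4.67, 4.85, 4.63 and 4.46 in control pools 1 to 4. In KO, pool 1 lay within the control range and the other 3 pools lay below it. The difference was -0.59 (SE 0.17, 95% interval -0.97 to -0.22), close in size to that of Cd55 but with a wider interval, and was not called (adjusted p in limma = 0.0975; exact permutation p = 0.0571). Without KO pool 1 the difference was -0.77 and passed the test (adjusted p = 0.0114), as it did without KO pools 1 and 2, at -0.68 (0.0481). With any other single pool left out adjusted p lay between 0.119 and 0.223. KO pool 1 also had the highest means of T cell and NK markers; their part in the Cd46 value was not tested.

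**Figure D3:**
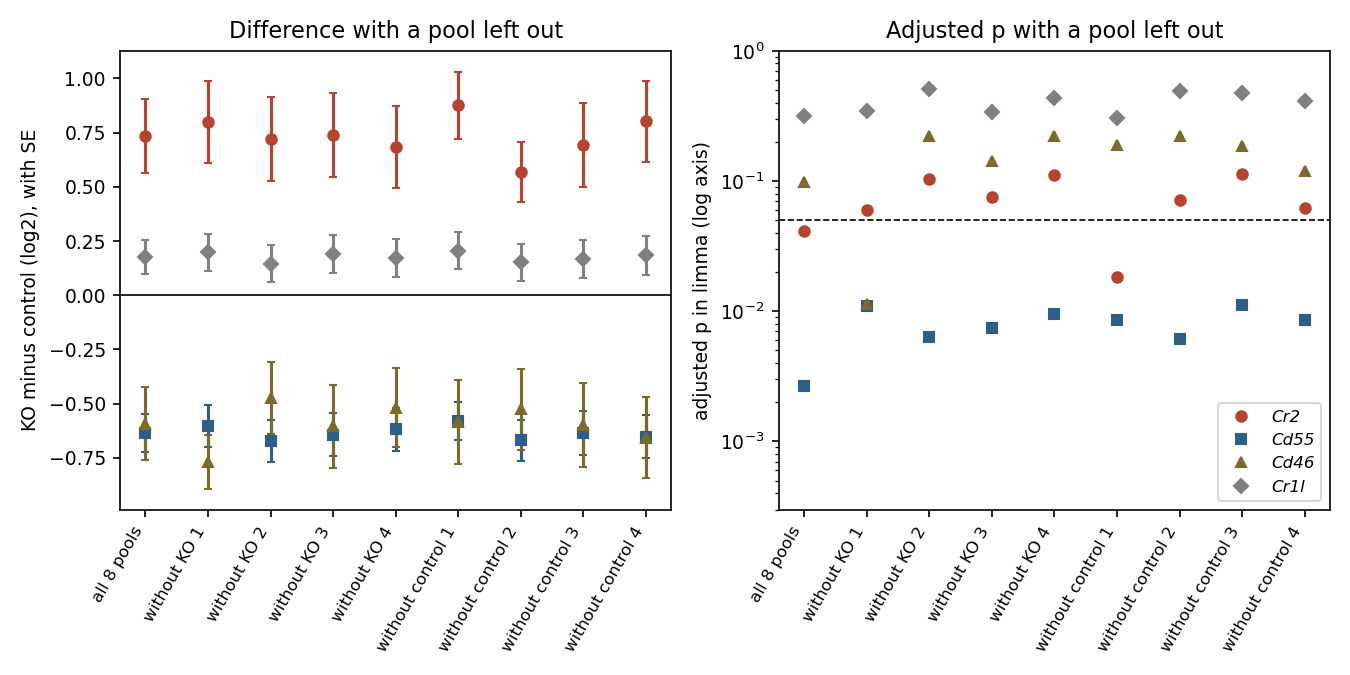
Left, KO minus control (log2) with its SE for 4 members with all pools and with each pool left out; right, the adjusted p in limma on a log axis, with 0.05 dashed. Cd55 stays below the dashed line in all 9 fits, Cr2 in 2, with all pools and without control pool 1, and Cd46 in 1, without KO pool 1.

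Cd59a encodes the main mouse form of CD59, the lipid-anchored protein that stops assembly of the membrane attack complex. Its 4 KO values, 3.18, 2.94, 2.54 and 3.14, overlapped the 4 control values, 2.72, 2.96, 2.81 and 3.25. The difference was 0.01 (95% interval -0.32 to 0.35; adjusted p in limma = 0.981), and its sign changed under several settings. Both groups lay below the median of all genes, where RMA values flatten and a fold is understated. The other mouse copy, Cd59b, differed by 0.04 (SE 0.16) and was not called.

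C3ar1 and C5ar1 encode the receptors for the anaphylatoxins C3a and C5a, which attract and activate myeloid cells. C3ar1 was at 3.53, 3.31, 3.64 and 3.43 in KO pools 1 to 4 and at 3.77, 3.40, 3.72 and 3.30 in control pools 1 to 4, with overlapping groups. C5ar1 was at 3.49, 3.09, 2.92 and 2.56 in KO and at 3.16, 2.85, 3.25 and 2.77 in control, in the same order of pools, and again the groups overlapped. The differences were -0.07 (95% interval -0.34 to 0.20; adjusted p in limma = 0.855) and 0.01 (-0.39 to 0.41; 0.991). Both genes averaged below the median of all genes, so a difference in their signal may be understated. C5ar1 was highest in KO pool 1 and control pool 3, and C3ar1 in KO pool 3 and control pool 1. In control, both genes and the macrophage marker mean were higher in pools 1 and 3 than in pools 2 and 4. In KO, C5ar1 ran in the pool order of that mean and C3ar1 did not. A shared source of their signal was not tested.

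Cfp encodes properdin, the plasma protein that stabilises the C3 convertase of the alternative pathway. Cfp was measured at 6.21, 6.42, 6.54 and 6.93 in KO pools 1 to 4 and at 6.63, 6.64, 6.34 and 6.14 in control pools 1 to 4. The KO range contained most of the control range. The difference was 0.09 (SE 0.16, 95% interval -0.26 to 0.44) and was not called (adjusted p in limma = 0.863). In KO, Cfp was highest in pool 4, where the macrophage marker mean was lowest at 4.78. In control, Cfp was lowest in pool 4, where that mean was also lowest, at 4.73. The source of the Cfp signal was not tested.

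**Figure D4:**
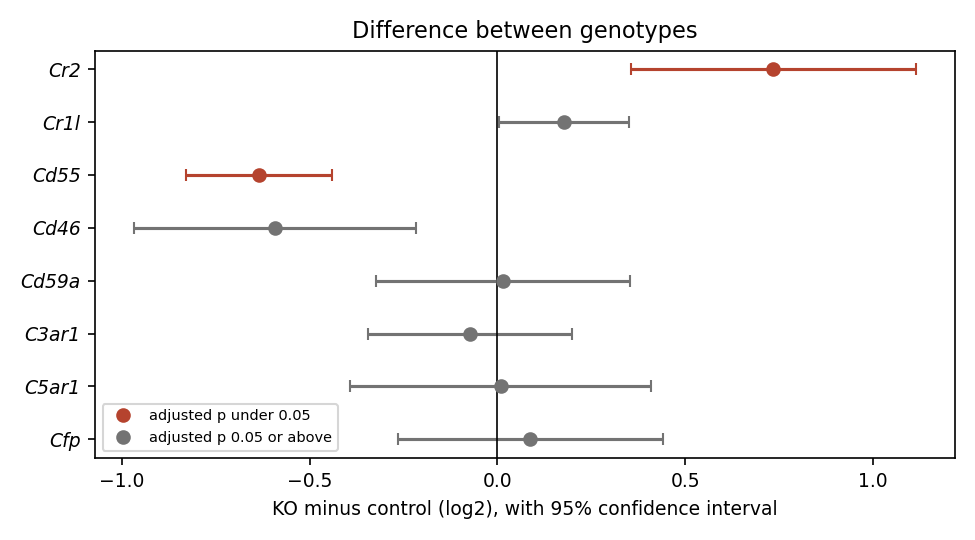
KO minus control (log2) for each measured member, with the 95% confidence interval of the limma fit over 4 pools per genotype; red marks an adjusted p under 0.05. The intervals of Cr2 (0.36 to 1.11) and Cd55 (-0.83 to -0.44) lie on opposite sides of 0, and those of Cd59a, C3ar1, C5ar1 and Cfp span it.

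The wider complement system was read from a list of 50 genes, members included, of which 46 were measured. Limma called 4 of the 46, or 8.7% against 3.59% of all genes: Cr2 rose, and Cd55, Itgam and C1s2 fell. The list's median difference was -0.05, against 0.02 over all genes. Without the 8 measured members it was 2 of 38. The other 4 listed genes, C3 among them, were not analysed here. Only 18 of the 46 had a mean above the median of all genes, among them 1 of 7 terminal pathway genes and 0 of 5 soluble regulators, groups made chiefly by the liver.

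Among 9 receptor genes 1 rose and 1 fell. Itgam encodes CD11b, the alpha chain of complement receptor 3, which binds the C3 fragment iC3b and is found on body cavity B-1 cells. It stood at 5.62, 5.76, 5.74 and 5.24 in KO pools 1 to 4 and at 7.70, 7.11, 7.09 and 7.18 in control pools 1 to 4, with no overlap. Itgam fell by 1.68 (SE 0.16; adjusted p in limma = 0.000191), the largest difference on the list. Its partner chain Itgb2 (CD18) was at 7.85 ± 0.19 in KO and 7.90 ± 0.12 in control and was not called (difference -0.05, SE 0.11, adjusted p = 0.886).

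Of 16 initiation genes C1s2, a serine protease gene of the C1 complex, was the 1 called. It fell by 0.48 (SE 0.10; adjusted p in limma = 0.0210) from 2.54 ± 0.14 to 2.06 ± 0.11, both below the median of all genes and close to the lowest values of the array. Leaving out KO pool 2, KO pool 4 or control pool 1, 3 or 4 ended the call (highest adjusted p 0.0676). C1s2 has a close copy, C1s1, whose probe set differed by 0.24 (SE 0.17) without a call. The C1q chains, made chiefly by macrophages, differed by 0.16 (C1qa), -0.09 (C1qb) and 0.13 (C1qc), none of them called. Cfb, the protease of the alternative convertase, differed by -0.18 (SE 0.13) without a call, and limma called 0 of 7 terminal genes and 0 of 5 soluble regulators. At an unadjusted p under 0.05 these were 1 and 0; the 1 was C8b (0.0452; adjusted p = 0.309), chosen after its values were seen.

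**Figure D5:**
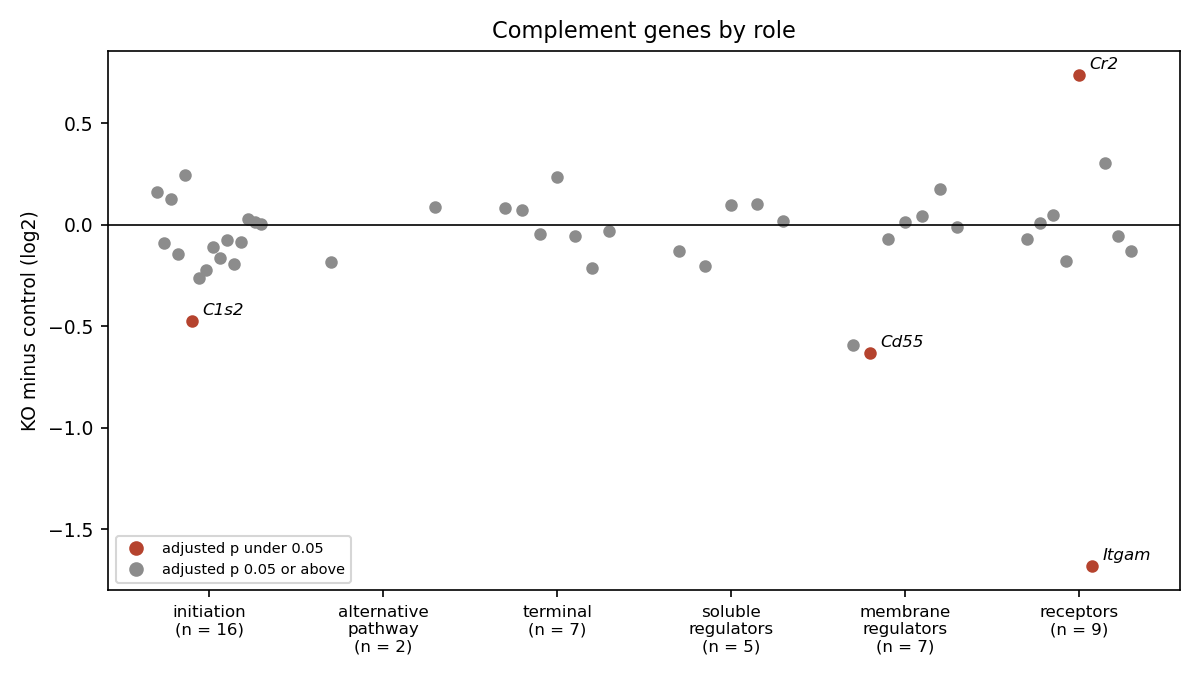
KO minus control (log2) of the 46 measured complement genes, grouped by role and in alphabetical order within a role; red marks an adjusted p under 0.05. Itgam at -1.68 and Cr2 at 0.74 are the extremes, and most genes lie near 0.

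CD21 works in a co-receptor complex on the B cell surface. Cd81, the tetraspanin of that complex, was at 9.89, 9.85, 9.80 and 9.86 in KO pools 1 to 4 and at 9.82, 10.01, 10.23 and 10.17 in control pools 1 to 4. Control pool 1 was the control pool that lay within the KO range, and the difference of -0.21 (SE 0.10) was not called (adjusted p in limma = 0.349). Of the related interferon-induced membrane proteins, Ifitm1 differed by 0.0032, Ifitm2 by -0.25 and Ifitm3 by -0.11, with 0 of 3 called by limma and 0 at an unadjusted p under 0.05. Ifitm3 spread far more in control, from 5.77 to 7.60, than in KO, from 6.34 to 6.55, and was highest in control pool 1.

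Several of these genes lie in clusters of regulators of complement activation on chromosome 1. In the gene order of GRCm38.p6, Cd46 is followed directly by Cr1l and then, past 1 long noncoding RNA gene, by Cr2; Cd55b and Cd55 lie in a separate cluster with C4bp. Neighbours in the first cluster therefore differed by -0.59 (Cd46), 0.18 (Cr1l) and 0.74 (Cr2), with Cr2 alone called. In the second, Cd55 was called at -0.63, while Cd55b differed by -0.07, the sperm gene Zp3r by -0.09 (SE 0.10) and C4bp, a soluble regulator, by -0.13 (SE 0.10), none of them called. Of 15 other genes within 4 places of Cr2, Cr1l, Cd46 or Cd55 only these last 3 were measured. A noncoding gene, Cd55os, overlaps Cd55 and was not analysed here.

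Across the 8 arrays the genes whose values ran most like those of Cr2, among 10286 with a mean above the median, were Uhrf1bp1l (Pearson's r = 0.984), Tlr3 (0.978), Zbtb14 (0.977) and Zkscan17 (0.975). After removal of each genotype's mean the r of these 4 still lay between 0.940 and 0.960. That r takes the pools of both genotypes together, and Cr2 spread more in control (SD 0.40) than in KO (0.15). Likeness within KO alone was not tested. Tlr3, which senses double-stranded RNA, rose by 0.75 (SE 0.13; adjusted p in limma = 0.0104), whereas the other 3 differed by 0.30 to 0.32 and were not called. Those most like Cd55 were Itgam (0.984), Mical3 (0.983), Rasgrp4 (0.980) and Clec2d (0.976), and all 4 fell. Rasgrp4, an activator of Ras, fell by 1.01 and Clec2d, a lectin-like ligand of NK cell receptors, by 1.22; Mical3, an oxidoreductase that acts on actin, fell by 0.40. Without the genotype means their r with Cd55 was 0.600 to 0.776. These r values describe 8 arrays, which share the 2 genotypes, and with so many candidates high values are found by selection: 91 genes had an r above 0.9 with Cr2 and 204 with Cd55.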

How the data were processed

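RNA of 8 pools of sorted peritoneal B-1a cells, 4 per genotype, was measured on 1 Affymetrix array each. The deposited table holds log2 values; RMA and R 3.2.2 were used by the authors, per the submitters' processing notes. Their package and probe set definition are not stated in the sources used here. Of 41345 probe sets, 23521 were named by exactly 1 gene symbol in the platform annotation; for each gene the one with the highest mean was kept. KO was compared with control in limma 3.58.1 (R 4.3.3; lmFit, eBayes, two-sided, Benjamini-Hochberg over 22180 genes, adjusted p under 0.05); the fit was tested on simulated data. Members, lists, the rule for named genes and alternatives were chosen with earlier results of these data known. The rule took every member, every called gene and the up to 3 highest genes per role of the complement list, the co-receptor genes, the genomic neighbours and 4 genes most like Cr2 and Cd55; not all of those per role are named. Promoter windows came from RefSeq (GRCm38.p6). Some listed genes are not reported here. The labels do not say how many mice went into each pool. The number of arrays limits the precision. Alternatives changed the probe set choice, genes tested, scaling, variance prior, array weights, threshold, replicate block and marker covariates, or left out pools.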

Additional observations from a re-analysis of the deposited data

Results flagged for a closer look

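Values that lay far from the other 3 pools of their genotype were found in 4 of the 64 groups of 4 pools examined; chance gives about 1 in 20 groups. Itgam was 7.70 in control pool 1 and between 7.09 and 7.18 in the other control pools. Cd55b was 3.53 in KO pool 2, below the 3.76 to 3.78 of the others. Uhrf1bp1l was 8.16 in KO pool 4, above 8.00 to 8.02. Ifitm1 was 2.70 in control pool 1, above 2.61 to 2.63, all of them dim. None of the 8 measured members was among them, while Itgam and Cd55b are on the wider complement list of 50 genes.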

How the results depend on the processing

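Of the members, Cd55 kept its call in all 20 alternatives and Cr2 its direction in all 20, but its call in 9. The number of called members, 2, became 1 without moderation of the variance, with the replicate block and with the T cell covariate, and ranged from 1 to 2 when 1 pool was left out. The same numbers held for the co-receptor and neighbour genes, whose calls with all 8 pools are also Cr2 and Cd55. The 2 called genes were not always these. Without KO pool 1, Cd46 was called (adjusted p in limma = 0.0114) and Cr2 was not (0.0600). Cd46 likewise took the place of Cr2 without KO pools 1 and 2. The complement list went from 4 to 2 calls without moderation and with the T cell covariate, and ranged from 2 to 4 with 1 pool left out. Over all genes the 797 calls became 303 without moderation, 1202 at an adjusted p under 0.10, 297 with the T cell covariate and 320 without KO pools 1 and 2, and ranged from 479 to 758 with 1 pool left out. The replicate number is no pairing by the labels. Deviations of same-numbered pools correlated at 0.036 to 0.107, and 3 of 8 arrays correlated best with their own number. The T cell marker mean was nonetheless higher in pools 1 and 2 than in pools 3 and 4 of both genotypes. With the replicate block 666 genes were called, and Cr2 (adjusted p in limma = 0.0592) and Mical3 (0.0514) were not.

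Signs changed only for genes that were not called. Repeated quantile normalization gave -0.00016 for Cd59a, -0.0050 for C5ar1 and -0.0086 for Ifitm1, and centring on the medians -0.0031 for C5ar1 and -0.0085 for Ifitm1. The T cell covariate gave -0.11 for Cd59a, -0.29 for C5ar1, -0.037 for Ifitm1, 0.018 for Zp3r and -0.11 for C1qc. The macrophage covariate gave -0.045 for Cd59a, 0.0029 for C3ar1, 0.18 for Ifitm3 and 0.19 for C1qb. Without KO pools 1 and 2 the values were -0.093 for Cd59a, -0.27 for C5ar1 and -0.032 for Ifitm1. With 1 pool left out the ranges spanned 0 for Cd59a (-0.062 to 0.15), C3ar1 (-0.16 to 0.0026), C5ar1 (-0.15 to 0.16), Cfp (-0.047 to 0.19), Ifitm1 (-0.025 to 0.022), Ifitm2 (-0.49 to 0.054), Ifitm3 (-0.36 to 0.25), Cd55b (-0.13 to 0.0012), C1qb (-0.32 to 0.17) and Itgb2 (-0.12 to 0.0077). The cause was not tested. Genes with a mean below the median could not be tested in the fit limited to brighter genes.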

Other observations

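Single genes on the marker lists for other cells of the peritoneal cavity were called, as were 3.59% of all genes. The keratin gene Krt8, listed for mesothelium, fell by 1.03 (SE 0.13, adjusted p in limma = 0.00196), from 6.12 ± 0.30 to 5.09 ± 0.07. Krt8 stayed called in all 20 alternatives and was the 1 called of 6 mesothelial markers. The other 5 were higher in KO. Among them Lrrn4, dim in both genotypes, differed by 0.28 with no overlap of pools and was not called (adjusted p in limma = 0.193). Of 17 macrophage markers 7 were higher in KO and 4 had an unadjusted p under 0.05, against 15.3% of all genes. Limma called 2, both lower and both encoding lysosomal proteins. The scavenger-like glycoprotein gene Cd68 fell by 0.56 (SE 0.12; adjusted p = 0.0275). The protease gene Lgmn, chosen after its values were seen, fell by 0.69 (SE 0.14; adjusted p = 0.0245). Adgre1, chosen likewise, differed by -0.76 (SE 0.23) without a call (adjusted p in limma = 0.122). Marco, the 1 of those 4 that was higher in KO, differed by 0.33 (SE 0.15) without a call (adjusted p in limma = 0.324). Omission of KO pool 1, KO pool 2 or control pool 1, 3 or 4 ended the call of Cd68 (highest adjusted p 0.0835), and omission of the same KO pools or control pool 1 or 4 that of Lgmn (highest adjusted p 0.0718).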
